A study of Mus musculus with 6 samples.

Results

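The genes of the NF-kB transcription factor and of its IkB inhibitors were examined in RAW264.7 cells, a mouse macrophage line, grown on the implant polymer polyetheretherketone (PEEK). The family was taken as 10 named genes, matched by symbol to the probe sets of an Affymetrix expression array. Of these, 9 were measured, each by 1 probe set, among 19505 named genes, and Nfkb1 was not analysed here because the annotation used named no probe set for it. The 2 groups were cells kept for 3 days on modified PEEK (3 samples) and on pristine PEEK, the control (3 samples). The labels do not say what the modification was. All samples were RAW264.7 cells in serum-containing medium, and no genetic change or added stimulus is named for either group. As a model they are 1 immortal line in place of tissue macrophages. The labels call the seeding triplicate without saying how separate the cultures were, so a p-value here covers the differences among 3 samples a surface and these may be technical.

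NF-kB is a family of dimeric transcription factors that turn on cytokine, chemokine and survival genes in activated macrophages. In resting cells the dimers are held in the cytoplasm by IkB proteins, and the IkB kinase (IKK) complex marks those inhibitors for destruction when a receptor is engaged. A further set of IkB-like proteins acts in the nucleus, on NF-kB dimers already bound to DNA. Many of these genes are themselves NF-kB targets, so that the pathway rebuilds its own brakes. The measurements below are of RNA and carry no information on where the proteins lie or whether they are active.

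All values are log2 signals, so a difference of 1 is a 2-fold difference, and levels are compared between surfaces for 1 gene and not between genes. In the 6 arrays the values ran from 0.941 to 12.4, with array medians over genes of 4.98 to 5.10. A background of 3.72 was taken from 1410 odorant and pheromone receptor genes, which macrophages scarcely use, as the level that 95% of them stay under. Every measured gene of the family lay above it on both surfaces. Of 14 macrophage identity genes, 13 were measured and all 13 lay above this background on at least 1 surface. Of these, Adgre1, encoding the surface marker F4/80, rose by 0.54 (adjusted p = 0.00669), and the integrin genes Itgam and Itgb2 fell by 0.59 (adjusted p = 0.00544) and 0.41 (adjusted p = 0.0410) on the log2 scale. The other 10 did not pass in limma, where 10.4% of all genes passed in either direction. At an unadjusted p under 0.05, 3 of the 13 were higher and 4 lower, where 11.3% of all genes were higher. The share of all genes lower at that unadjusted threshold was not computed. Counts of genes lower at an unadjusted p, here and below, therefore have no share to be read against. The part of the changes of Adgre1, Itgam and Itgb2 in those of the NF-kB genes was not tested. The summed linear signal of the 13 was 23533 to 24061 on modified PEEK and 24162 to 24841 on pristine PEEK. With 3 arrays a surface, precision is limited by their number. In bulk RNA, fewer cells that use a gene and less RNA per cell cannot be told apart.

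The question put to the family was whether its RNA levels differed between cells on modified and on pristine PEEK. Nfkbiz, Nfkbib, Bcl3, Relb and Rela fell on modified PEEK, by 1.01, 0.81, 0.56, 0.50 and 0.34 on the log2 scale. That is 5 of 9 measured genes lower, where 5.15% of all genes were lower at the same threshold, an adjusted p under 0.05 in limma's moderated test over all genes. None of the 9 was higher at that threshold, against 5.24% of all genes, and 10.4% of all genes passed in either direction. Those shares include genes with no signal over background. With genes below background on both surfaces left out, 1344 of 13227 genes were lower, and 6 of the 9. At an unadjusted p under 0.05 in limma, 1 of the 9, Rel, was higher, against 11.3% of all genes. At that threshold 6 were lower, for which the share of all genes was not computed. With an ordinary variance for each gene 0 were higher and 4 lower. The median change of the 9 genes was -0.35, and that of all genes 0.0088. For 8 of the 9 the arrays of the surfaces did not overlap, which held for 28.8% of all genes. The count of 5 lower genes rested partly on single arrays. Leaving out pristine PEEK replicate 3 gave 2, and leaving out any 1 of pristine PEEK replicate 2, modified PEEK replicate 1 and modified PEEK replicate 3 gave 3. Nfkbiz and Nfkbib passed in each of these fits.

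**Figure D1:**
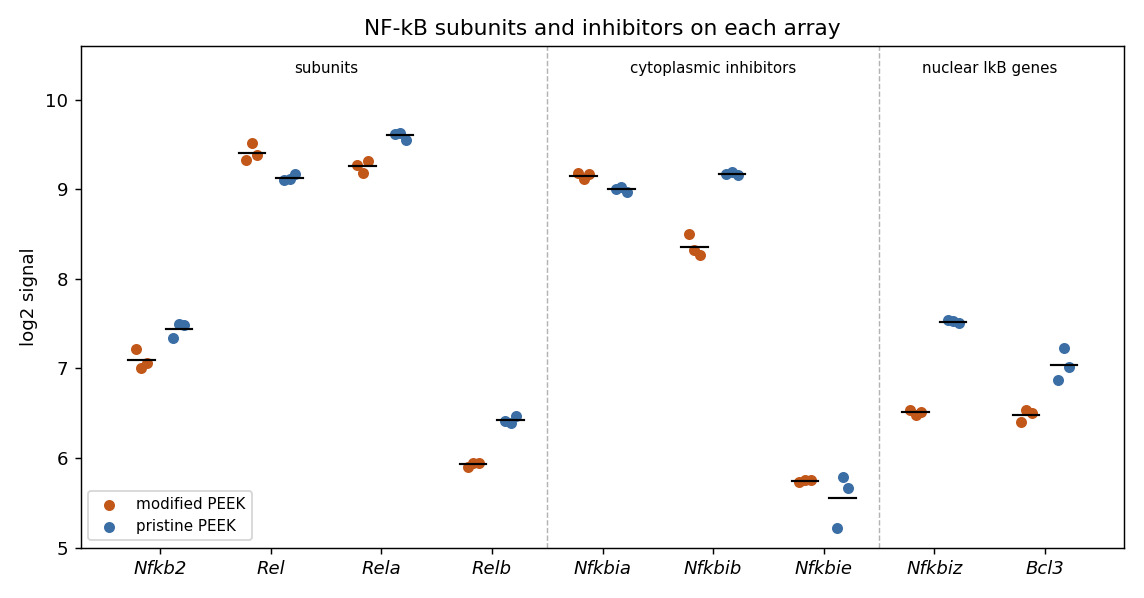
Log2 signal of the 9 measured genes on each of the 6 arrays, modified PEEK left of pristine PEEK for each gene, with a black line at each mean of 3 arrays. The surfaces overlap for Nfkbie alone, where 1 pristine PEEK array lies at 5.22.

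**Figure D2:**
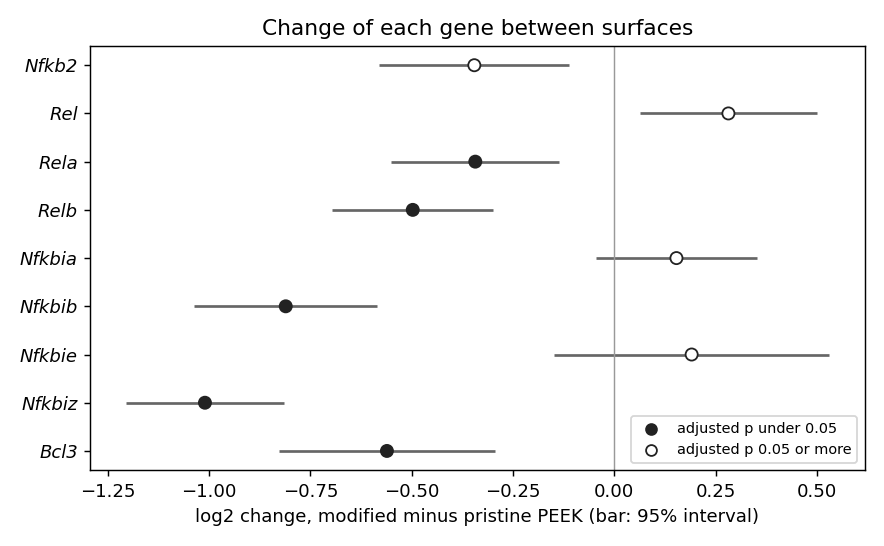
Log2 change of each gene, modified minus pristine PEEK, with its 95% interval from limma, filled where the adjusted p was under 0.05. Nfkbiz at -1.01 and Nfkbib at -0.81 lie farthest from 0, and Nfkbia, Nfkbie and Rel lie above 0 without passing.

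Among the DNA-binding subunits, 2 of the 4 measured genes were lower and 0 higher in limma. At an unadjusted p under 0.05, 3 were lower and 1, Rel, was higher. With an ordinary variance per gene 0 were higher. Relb encodes the partner of the processed Nfkb2 product in the slower, non-canonical branch of the pathway. Its signal was 5.90, 5.94 and 5.94 on the modified PEEK arrays, against 6.42, 6.39 and 6.47 on the pristine PEEK arrays. The modified arrays all lay below the pristine ones, with a gap of 0.45 between the nearest arrays and at most 0.077 between the arrays of 1 surface. Relb was 1.41-fold lower (-0.50 ± 0.086 SE, adjusted p = 0.00853, lower on 3 of 3 arrays). Without pristine PEEK replicate 3 its adjusted p was 0.0505 and it did not pass.

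Rela encodes the main transactivating subunit of the fast, canonical branch. Its signal was 9.27, 9.18 and 9.32 on modified PEEK, against 9.62, 9.63 and 9.55 on pristine PEEK. The surfaces did not overlap, and the difference was small, at 1.27-fold lower (-0.34 ± 0.090 SE, adjusted p = 0.0492). This call sat at the threshold. In each of the 6 fits on 5 arrays Rela did not pass, with adjusted p from 0.0759 to 0.166 and changes between -0.37 and -0.31.

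Nfkb2 encodes the precursor that both restrains Relb and, once processed, pairs with it. Its signal was 7.22, 7.00 and 7.06 on modified PEEK and 7.34, 7.49 and 7.49 on pristine PEEK. The lowest pristine array lay 0.12 above the highest modified one. The change was of the same size as that of Rela but less precise, and did not pass (-0.35 ± 0.10 SE, 95% interval -0.58 to -0.11, adjusted p = 0.0746). It passed under 6 of the 18 alternatives tried, with adjusted p as low as 0.0165 under an intensity trend in the variance model.

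Rel encodes c-Rel, a subunit abundant in cells of the blood lineages, and its value lay on the other side of 0 from the rest of the subunits. Its signal was 9.32, 9.52 and 9.38 on modified PEEK and 9.10, 9.11 and 9.17 on pristine PEEK. All modified arrays lay above all pristine arrays, with modified PEEK replicate 2 the highest. The change of 0.28 ± 0.095 SE did not pass (95% interval 0.064 to 0.50, adjusted p = 0.114). With an intensity trend it did, at an adjusted p of 0.00288. The intervals of Rel and of Rela, -0.55 to -0.14, lay on opposite sides of 0.

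The cytoplasmic inhibitors did not share a direction. Of 3 genes, 1 was lower and 0 higher, also with an ordinary variance per gene and at an unadjusted p under 0.05 in limma. Nfkbib, encoding IkB-beta, had signals of 8.50, 8.32 and 8.27 on modified PEEK, against 9.17, 9.19 and 9.16 on pristine PEEK. The gap between the surfaces, 0.66, was larger than the spread on either, 0.23 between the modified arrays and 0.032 between the pristine arrays. The gene was 1.75-fold lower (-0.81 ± 0.098 SE, adjusted p = 0.00156, lower on 3 of 3 arrays). It passed in each of the 18 alternatives.

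Nfkbia encodes IkB-alpha, the quickly resynthesised inhibitor of Rela-containing dimers and a textbook NF-kB target. Its signal was 9.18, 9.11 and 9.17 on modified PEEK and 9.0, 9.03 and 8.97 on pristine PEEK. The arrays did not overlap, but the separation of 0.084 was narrow and the change of 0.15 ± 0.086 SE did not pass (adjusted p = 0.357). Its 95% interval of -0.045 to 0.35 reaches no fall of the size seen for Nfkbib, whose interval was -1.04 to -0.59.

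Nfkbie encodes IkB-epsilon, another cytoplasmic inhibitor. It read 5.73, 5.76 and 5.75 on modified PEEK and 5.22, 5.79 and 5.66 on pristine PEEK. The surfaces overlapped, and pristine PEEK replicate 1 was the low array. The change of 0.19 ± 0.15 SE did not pass (95% interval -0.15 to 0.53, adjusted p = 0.521), and it was 0.022 without that array.

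Of the nuclear IkB genes, the 2 in the family, Nfkbiz and Bcl3, fell, while Nfkbid, described after them, was higher. Nfkbiz encodes IkB-zeta, an inducible cofactor that Toll-like and interleukin-1 receptors switch on and that a subset of secondary inflammatory genes needs. Its signals were 6.53, 6.48 and 6.52 on modified PEEK, against 7.54, 7.53 and 7.50 on pristine PEEK. The arrays of a surface lay within 0.051 of each other and the surfaces were 0.97 apart at their nearest. The level was 2.01-fold lower (-1.01 ± 0.085 SE, 95% interval -1.21 to -0.81, adjusted p = 0.00035, lower on 3 of 3 arrays). Among 19505 genes this change ranked 371st by size.

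Bcl3 encodes a nuclear IkB that binds homodimers of the processed Nfkb1 and Nfkb2 products and can repress or activate with them. Its signal was 6.40, 6.53 and 6.50 on modified PEEK, against 6.87, 7.23 and 7.02 on pristine PEEK. All modified arrays were below all pristine arrays, although the pristine arrays spread over 0.36. Bcl3 was 1.48-fold lower (-0.56 ± 0.12 SE, adjusted p = 0.0184). In 4 of the 6 fits on 5 arrays it did not pass, namely those leaving out pristine PEEK replicate 2, pristine PEEK replicate 3, modified PEEK replicate 1 or modified PEEK replicate 3, and the highest adjusted p was 0.0665. With an ordinary variance for the gene it was also lost (adjusted p = 0.0733).

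Nfkbid, another gene for a nuclear IkB (IkBNS), was among the other brakes listed below and moved the opposite way. It averaged 7.71 ± 0.13 on modified PEEK and 7.10 ± 0.11 on pristine PEEK (SD, n = 3 each). It was 1.53-fold higher (0.61 ± 0.11 SE, adjusted p = 0.00988) and passed in each of the 18 alternatives. The nuclear IkB genes thus did not all fall.

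The overall scale matters for the smaller of these changes. The 24 probe sets for poly-A control RNAs averaged 6.71 ± 0.14 on modified PEEK and 6.96 ± 0.15 on pristine PEEK (SD, n = 3 each), and scaling the arrays to them moved the median change of all genes to 0.26. On that scale 290 of all 19505 genes were lower and 1575 higher, against 1004 and 1023 in the main test. Of the 9 genes, 2 were lower, Nfkbiz (-0.76, adjusted p = 0.00931) and Nfkbib (-0.56, adjusted p = 0.0451). Rela, Relb and Bcl3 did not pass, at -0.096, -0.25 and -0.31. Relative to the shifted median of all genes, Rela, Relb and Bcl3 stood at -0.35, -0.51 and -0.57. The scaling moves every gene's change by the same amount, so these relative values repeat the main test and are no further check. No gene of the 9 changed sign under any of the 18 alternatives. Those that altered only the filter, the probe sets, the variance model or the replicate block left each change as it was. Only the rescalings, array weights and fits without 1 array could have turned a sign.

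**Figure D3:**
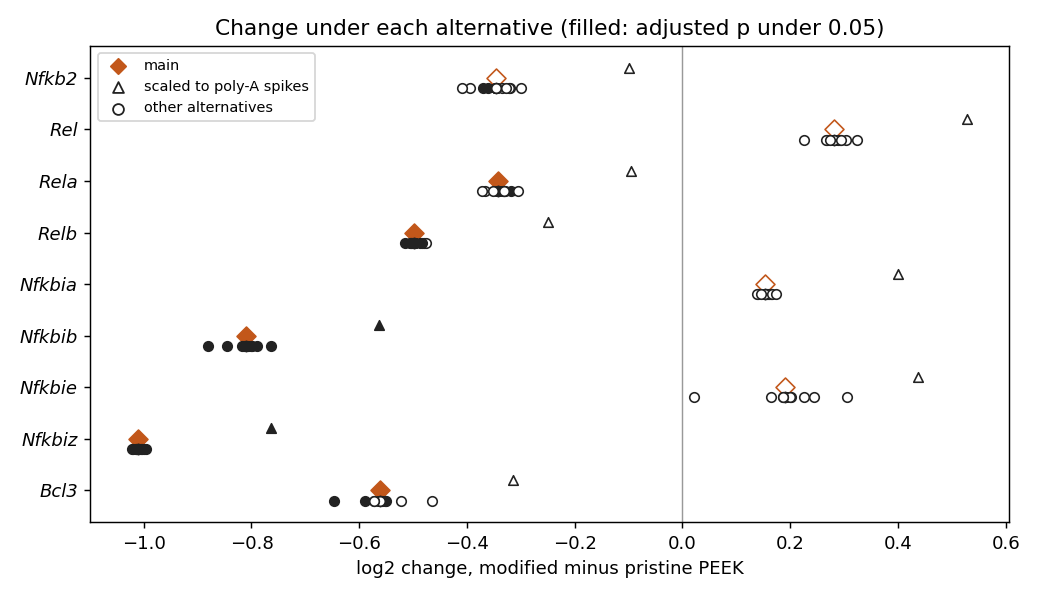
Log2 change of each gene, modified minus pristine PEEK, in the main test (diamonds), with arrays scaled to the poly-A spikes (triangles) and under the other alternatives (circles), filled where the adjusted p was under 0.05. The symbols of Nfkbiz and Nfkbib are all filled, and no gene has symbols on both sides of 0.

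Since NF-kB binds kB sites in DNA, the promoters of these genes were searched for such letters. RefSeq windows (GRCm38.p6) of 300 bases, 250 before and 50 after a start site, were held for 7 of the 10 genes, in 9 windows. There was none for Nfkb1, Relb or Nfkbiz. They were searched on both strands for 2 overlapping motifs, the 10-letter kB consensus and GGANNTTCC, which is 9 letters of a kB site. The consensus was present in 4.51% of all 32851 windows and GGANNTTCC in 4.26%. Counted by gene, any window of it, the shares were 5.14% and 4.86% of 27025 genes. The share of genes holding either motif was not computed. A window of 5 of the 7 genes held a match: Nfkb2, Rel, Nfkbia, Nfkbie and Bcl3. All 4 measured genes that did not pass had a match. Of the 3 genes that fell and had a window, 1 did, Bcl3, at positions 2 to 11 counted from the start site as 0. Relb and Nfkbiz, which also fell, could not be searched, and a link between match and change was not tested. The windows of Rela and Nfkbib held none, which says only that these letters do not occur there. A match is a description of the sequence and not a measured binding site.

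The 250 bases before the start are printed for Nfkbia and Nfkb2, which did not pass and hold matches, and for Nfkbib, which fell and holds none. Capitals mark bases inside a match of either motif, and each sequence runs 5′ to 3′ on the strand of its gene. Nfkbia lies on the minus strand at chr12:55492648-55492897, Nfkb2 (1 of its 3 windows) on the plus strand at chr19:46304487-46304736 and Nfkbib on the minus strand at chr7:28766645-28766894.
Nfkbia: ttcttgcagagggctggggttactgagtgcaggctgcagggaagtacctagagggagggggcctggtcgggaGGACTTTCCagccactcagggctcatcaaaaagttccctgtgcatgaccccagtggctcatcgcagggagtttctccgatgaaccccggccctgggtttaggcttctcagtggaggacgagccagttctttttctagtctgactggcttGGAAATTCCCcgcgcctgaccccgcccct
Nfkb2: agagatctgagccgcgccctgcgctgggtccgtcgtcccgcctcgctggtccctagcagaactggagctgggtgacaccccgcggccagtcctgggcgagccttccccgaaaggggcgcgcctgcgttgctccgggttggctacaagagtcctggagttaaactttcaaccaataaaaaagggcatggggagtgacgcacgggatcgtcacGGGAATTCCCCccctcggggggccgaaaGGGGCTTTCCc
Nfkbib: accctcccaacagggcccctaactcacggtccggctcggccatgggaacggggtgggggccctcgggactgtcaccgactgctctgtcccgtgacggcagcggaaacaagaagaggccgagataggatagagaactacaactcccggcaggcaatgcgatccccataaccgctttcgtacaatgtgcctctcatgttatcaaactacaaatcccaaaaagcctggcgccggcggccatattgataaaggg

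In Nfkbia the matches GGACTTTCC and GGAAATTCC begin at -178 and -29, counted as above. In the Nfkb2 window the palindromic match GGGAATTCCC begins at -39 and GGGGCTTTCC at -11. Rel, whose window held the match GGGAAATCCC from -92, had the highest change of the 9 genes, at 0.28. The measured genes with matches ranged in change from Bcl3 at -0.56 to Rel at 0.28.

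The genes around the family were taken from 5 lists by role, each to be read against the 5.15% of all genes that were lower and the 5.24% that were higher. With genes below background on both surfaces left out, 1344 of 13227 genes were lower and 1317 higher. Of 17 genes for the IKK complex and the kinases above it, 12 were measured, 2 of them lower and 0 higher in limma. Their median change was -0.10. At an unadjusted p under 0.05, 4 were lower and 0 higher, and 0 were higher with an ordinary variance per gene. Ikbkg, encoding the regulatory subunit NEMO of the IKK complex, averaged 5.93 ± 0.26 on modified PEEK and 6.64 ± 0.18 on pristine PEEK (SD, n = 3 each). It fell by 0.71 (adjusted p = 0.0233). Of the catalytic subunit genes of that complex, Ikbkb did not pass (0.11, adjusted p = 0.654) and Chuk was not measured. Tab2, an adaptor of the kinase that activates IKK, fell by 0.37 (adjusted p = 0.0306). Irak3, a restraining member of the receptor-associated kinases, and Tbk1 did not pass, at -0.18 and 0.038. The 2 lower genes became 0 on leaving out pristine PEEK replicate 2 or 3, and 1 on leaving out pristine PEEK replicate 1, modified PEEK replicate 2 or modified PEEK replicate 3. On the spike scale 0 were lower, where 290 of all 19505 genes were. With centring on array medians or an ordinary variance 1 was lower. The call for Tab2 was lost in all 6 fits without 1 array.

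Of 26 measured genes for receptors and adaptors that feed NF-kB, 3 were lower and 0 higher, with a median change of -0.053, where 5.15% of all genes were lower. Cd40, the costimulatory TNF-family receptor, averaged 5.34 ± 0.19 on modified PEEK and 6.38 ± 0.10 on pristine PEEK (SD, n = 3 each), which is 2.06-fold lower (adjusted p = 0.00134). The adaptor gene Traf1 fell by 0.72 and Ly96, encoding the Toll-like receptor 4 co-receptor MD-2, by 0.47. Tlr7, a sensor of single-stranded RNA, was 11.16 ± 0.054 on modified PEEK and 10.84 ± 0.013 on pristine PEEK (SD, n = 3 each) and did not pass (0.32, adjusted p = 0.0534). At an unadjusted p under 0.05 in limma 5 of these genes were higher, against 11.3% of all genes, and 6 were lower. With an ordinary variance per gene 2 were higher and 3 lower. The 3 lower genes of the main test became 1 on leaving out pristine PEEK replicate 3. On the spike scale 1 was lower and 4 were higher, beside 290 and 1575 of all 19505 genes.

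Other brakes on NF-kB moved both ways: 4 of 19 measured genes were lower and 2 higher, with a median change of -0.069. The higher genes were Nfkbid and Tnip3, whose product binds the ubiquitin-editing enzyme Tnfaip3. Tnip3 averaged 10.51 ± 0.063 on modified PEEK and 9.64 ± 0.10 on pristine PEEK (SD, n = 3 each), 1.83-fold higher (adjusted p = 0.00107). The related Tnip1 fell by 0.51 and Zc3h12a, encoding an RNase that degrades cytokine mRNAs, by 0.57. Rnf11, a partner of the Tnfaip3 enzyme, fell by 0.84, as did Trim30a, which in mice targets the Tab2 and Tab3 proteins, also by 0.84. Tnfaip3 itself was 6.92 ± 0.27 on modified PEEK and 7.02 ± 0.056 on pristine PEEK (SD, n = 3 each) and did not pass (-0.10, adjusted p = 0.737). Tax1bp1 (-0.15) and Ppp4c (-0.092) did not pass either. Scaled to the spikes, 2 of these genes were lower and 3 higher, beside 290 and 1575 of all 19505 genes.

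Textbook NF-kB target genes were lower in 24 of 48 measured cases and higher in 2, with a median change of -0.41, beside 5.15% lower and 5.24% higher over all genes. The list was drawn up with earlier results of these arrays known, so its direction is a description and not independent evidence. Lcn2, encoding the iron-siderophore carrier lipocalin 2, stood at 3.78 ± 0.32 on modified PEEK, next to background, and at 9.88 ± 0.23 on pristine PEEK (SD, n = 3 each). The chemokine gene Cxcl2 fell by 3.23, Ptgs2, encoding cyclooxygenase 2, by 2.51, and Csf1, the macrophage growth factor gene, by 1.96. The 2 higher genes, named after their values were seen, were Slc2a6, a sugar transporter gene (0.70, adjusted p = 0.00391), and Cd83, a surface marker of activation (0.53, adjusted p = 0.0166). The survival gene Birc3 (0.12) and Tnfaip2 (-0.17) did not pass. Tnf was 9.49 ± 0.038 on modified PEEK and 10.04 ± 0.079 on pristine PEEK (SD, n = 3 each; adjusted p = 0.00696). Il1a, Il1b, Il6, Il10, Csf2, F3 and Vcam1 lay below background on both surfaces and give no information on their fold. Il23a, Nos2 and Mmp9, counted as lower, lay below background on modified PEEK alone. The closely related Bcl2a1a, Bcl2a1b and Bcl2a1d were counted as separate lower genes. The count lower was 13 when scaled to the spikes, where the count over all 19505 genes was 290 in place of 1004. The 2 higher genes became 1 without pristine PEEK replicate 1, pristine PEEK replicate 2 or modified PEEK replicate 3.

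A short list of genes linked to IkB-zeta was written from general knowledge and shares members with the target list. In limma 3 of its 10 measured genes were lower and 0 higher. At an unadjusted p under 0.05, 4 were lower and 1 higher, and 0 were higher with an ordinary variance per gene. Its median change was -0.17. The 3 were Lcn2, Ccl2, encoding the monocyte chemoattractant (2.21-fold lower, adjusted p = 0.00105), and the prostaglandin E synthase gene Ptges (-0.78, adjusted p = 0.0356). Ptges lost its call without any 1 pristine PEEK array and without modified PEEK replicate 1. Hamp (-0.13) and Saa3 (-0.15) did not pass. Il6, Csf2, Cxcl5 and Defb4 lay below background on both surfaces, so 6 of the 10 genes had a signal to compare. Among those below background, Csf2 was the further lower gene at an unadjusted p and Cxcl5 the higher one.

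**Figure D4:**
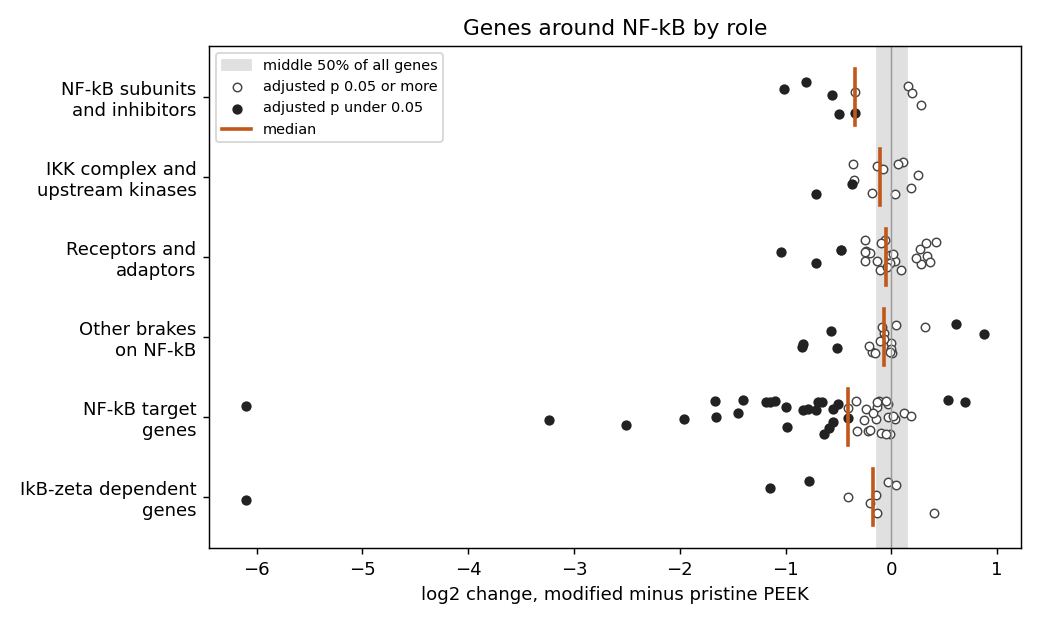
Log2 change, modified minus pristine PEEK, of each gene of the family and of the 5 lists, filled where the adjusted p was under 0.05, with an orange line at each median and a grey band over the middle 50% of all genes. The target genes have a median of -0.41 and reach -6.10 for Lcn2, while the medians of the kinases, receptors and other brakes lie within the band.

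By the smallest root mean square difference of profiles centred on their means, the genes most like Nfkbiz over the 6 arrays, with predicted gene symbols left out, were Tmem116 (0.034), Acot2 (0.040) and Parp4 (0.055). They fell by 1.04, 1.03 and 1.05, and nothing about their function follows from the likeness.

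RAW264.7 cells can become osteoclast-like, so markers of that state were examined. Of 8 osteoclast genes measured, 4 were lower (5.15% over all genes) and 0 higher (limma; 5 lower and 1 higher at an unadjusted p under 0.05). The summed linear signal of the 8 was 486 to 595 on modified PEEK, against 1327 to 1392 on pristine PEEK. Atp6v0d2 fell by 2.43, Acp5 by 1.41 and Dcstamp by 0.84. Mmp9, which is also in the target list, lay below background on modified PEEK. Ctsk (-0.29), Oscar (-0.32) and Ocstamp (0.33) did not pass, and the calcitonin receptor gene Calcr lay below background on both surfaces. The part of this difference in the changes of the NF-kB genes was not tested. Of the measured fibroblast (5), epithelial (5), lymphocyte (6) and neutrophil (6) markers, none passed in limma. At an unadjusted p under 0.05, 1 fibroblast marker, below background on both surfaces, was lower. At the same threshold 1 neutrophil marker, above background on both, was higher.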

How the data were processed

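Per the labels' protocols, RNA was isolated with Trizol and turned into biotinylated cDNA for Affymetrix arrays. The deposited values are log2 signals per probe set, and RMA, a method that equalises the arrays' distributions and summarises probes, is named without a version in the submitters' processing notes. The log2 scale was inferred from the range of the values. Where quantile normalization was applied, a change in total RNA per cell is not visible. There were 0 columns of values left unused.

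Of 29129 features, 6923 were array controls. Gene symbols came from the platform annotation, with gene IDs checked against RefSeq: 19572 probe sets named 1 gene, 0 several and 2634 transcript probe sets none. Each of 19505 genes was represented by its brightest probe set on average. Array build and coordinates were not given in the sources used here.

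The surfaces were tested two-sided by limma 3.58.1 (R 4.3.3; lmFit, then eBayes with no trend and no covariate; 4 residual and 4.09 prior degrees of freedom), with Benjamini-Hochberg adjustment over all genes. Adjusted p under 0.05 counted as changed, and no filter on dim probe sets was used. Changes are modified minus pristine PEEK, and array compression can make them smaller than the true ratio. Promoters were searched in Python 3.11.15.

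The members, lists, background and alternatives were chosen with earlier results of these data known. Named were all members and, from each pathway list, at most 4 passing genes, by size of change, and at most 2 others, by signal, not all of which are printed. Nfkbid's separate description, Ikbkb, Tnip1, Zc3h12a, Tnfaip3, Tnf, the Bcl2a1 genes, Il23a, Nos2, Slc2a6, Cd83 and the macrophage and osteoclast genes given were chosen after their values were seen. The 18 alternatives were scaling to 24 poly-A spike probe sets, centring on array medians, a repeated quantile normalization, leaving out the lowest 25% of genes or those below background on both surfaces, averaging or testing all probe sets, an ordinary variance per gene, weights for arrays, an intensity trend (plain or robust), a block for the replicate number, and leaving out each array.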

Additional observations from a re-analysis of the deposited data

How the results depend on the processing

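Of the 9 measured genes, 4 (Nfkbia, Nfkbib, Nfkbie and Nfkbiz) kept their direction and their side of the threshold under all 18 alternatives. Of the 9, 0 changed sign, which only the rescalings, array weights and fits without 1 array could have brought about. The 5 lower genes became 2 when scaled to the poly-A spikes and 2 to 4 with 1 array left out, and the 0 higher genes became 1 with an intensity trend, plain or robust. Rela did not pass when centred on array medians (-0.33), scaled to the spikes (-0.096), with all probe sets tested (-0.34) or with 1 array left out (-0.37 to -0.31). Relb did not pass at -0.25 on the spike scale, and ranged from -0.51 to -0.48 with 1 array left out. Bcl3 did not pass on the spike scale (-0.31) or with an ordinary variance (-0.56), and ranged from -0.65 to -0.46 with 1 array left out. Nfkb2 passed with quantile normalization again (-0.36), array weights (-0.37), and at its unaltered change of -0.35 when dim genes were left out by either filter or with an intensity trend, plain or robust. Rel passed at 0.28 with the plain and the robust trend. The cause of each of these differences was not tested, except that the filters adjust over fewer genes, 14629 and 13227.

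Over all genes, 2027 passed (1023 higher, 1004 lower). An intensity trend gave 3305 (1586 and 1719), the robust trend 3282 (1580 and 1702), and leaving out 1 array 1142 to 1863 (594 to 903 higher, 548 to 1048 lower). On the spike scale 1575 were higher and 290 lower. The deviations of same-numbered arrays from their surface means had correlations of -0.17, -0.16 and 0.068. These correlations cannot show whether samples with the same number were handled together. With the replicate number as a block, 1268 genes passed (646 higher, 622 lower), and of the family 4 were lower, Rela (-0.34, adjusted p = 0.146) being lost. Of the IKK list 0 were then lower. Of the receptors and adaptors 3 and 4 were higher under the filters, 4 with either trend and 2 with array weights, against 0.

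Among genes outside the family named by rule that did not pass, the sign turned on the spike scale for Irak3 (0.064), Tax1bp1 (0.093), Ppp4c (0.15), Tnfaip2 (0.073), Saa3 (0.10) and Hamp (0.11), and for the Toll-like co-receptor gene Cd14 (0.010). With 1 array left out Tbk1 ranged from -0.0079 (without pristine PEEK replicate 2) to 0.065, and the sign also turned for Hamp without modified PEEK replicate 1 (0.076). Signal over background did not limit the family, all of whose measured genes lay above 3.72.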
